A study of Mus musculus with 10 samples.

Results

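The genes described here are 10 genes that sense, carry and break down retinoic acid: the receptors Rara, Rarb and Rarg, the cellular binding proteins Crabp1 and Crabp2, the uptake receptor Stra6, and the enzymes Dhrs3, Cyp26a1, Cyp26b1 and Cyp1b1. They were taken by name, and every probe set that the platform annotation assigns to a single one of these symbols was used. All 10 were on the array, with 13 probe sets of 45101, and they make up 10 of the 18194 genes tested. Cyp1b1 had 3 probe sets, Rarg had 2, and the other genes had 1 each. Expression was read on 10 Affymetrix arrays, all of the mouse embryonic stem cell line NG4. The groups are siSocs3, siSox17, siFbxw7 and siRnf31, each named for the gene its siRNA targets, and the control siNonTarget, which received an siRNA without a target, with 2 arrays in each. Cells of all 5 groups, the control included, were differentiated in retinoic acid and collected 48 h after transfection, so no group shows these genes without retinoic acid. Nothing in the labels says that the 2 arrays of a group came from separate cultures, and the spread on which every p-value rests may therefore be technical.

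Retinol enters cells, in part through Stra6, and is oxidised to retinaldehyde and then to retinoic acid. Retinoic acid binds receptors of the RAR family, which sit on DNA as heterodimers with retinoid X receptors, often on direct repeats of a short motif, and switch on transcription when the ligand is bound. Several of the induced genes act back on the signal: CYP26 enzymes hydroxylate retinoic acid and so clear it, Dhrs3 turns retinaldehyde back to retinol, and Rarb is itself a receptor. In embryonic stem cells retinoic acid is a standard trigger of exit from pluripotency and of neural and extraembryonic endoderm differentiation.

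The 4 genes that the siRNAs target were checked first, each by its brightest probe set. None differed past the threshold in the group named for it (adjusted p between 0.281 and 0.988, limma). The log2 differences from siNonTarget were 0.44 for Socs3, 0.03 for Sox17, −0.25 for Fbxw7 and −0.40 for Rnf31. Only for Rnf31 did the arrays not overlap with the controls, which in siRnf31 was so for 35.2% of all genes. Socs3 read 10.66 and 10.11 on the arrays labelled siSocs3 against 9.62 and 10.28 on the siNonTarget arrays (log2 intensity). The directions given for each group thus rest on its label. The log2 signal of the 3' actin control minus that of the 5' one, which grows as RNA degrades, was 0.60 on siFbxw7 replicate 1 and 0.50 on siNonTarget replicate 1, and 0.21 to 0.29 on the other 8 arrays. Markers of the labelled cell type were bright on every array, Pou5f1 at 11.10 to 12.63 and Sox2 at 10.97 to 11.57 (log2 intensity). The summed level of 13 fibroblast feeder markers was 12.65 to 13.62 over the arrays, so some of them were bright. Of the 13, only Thy1 (4.13 to 4.88) and Col1a1 (5.57 to 7.16) are given singly. Both lay near or below the median gene (7.0), so they are not the bright ones and do not stand for the list.

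In the arrays labelled siSocs3, 5 of the 10 genes fell relative to siNonTarget and none rose: Cyp1b1, Crabp2, Cyp26b1, Dhrs3 and Rarb (limma, adjusted p under 0.05). Among all 18194 genes 5.66% fell and 3.59% rose in this comparison, 1030 and 654 genes. Centring each array on its median turned this balance, to 764 lower and 1082 higher, and left the 5 calls in place. The estimate was below 0 for 9 of the 10 genes, with a median log2 difference of −1.20, beside 0.03 over all genes. The exception was Rarg. For 8 of the 10 genes the siSocs3 and siNonTarget arrays did not overlap, which was also so for 57.2% of all genes, and 7 of 10 had an unadjusted p under 0.05, beside 26.2% of all genes. In these bulk samples, fewer cells expressing a gene and less RNA of it per cell cannot be told apart.

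**Figure D1:**
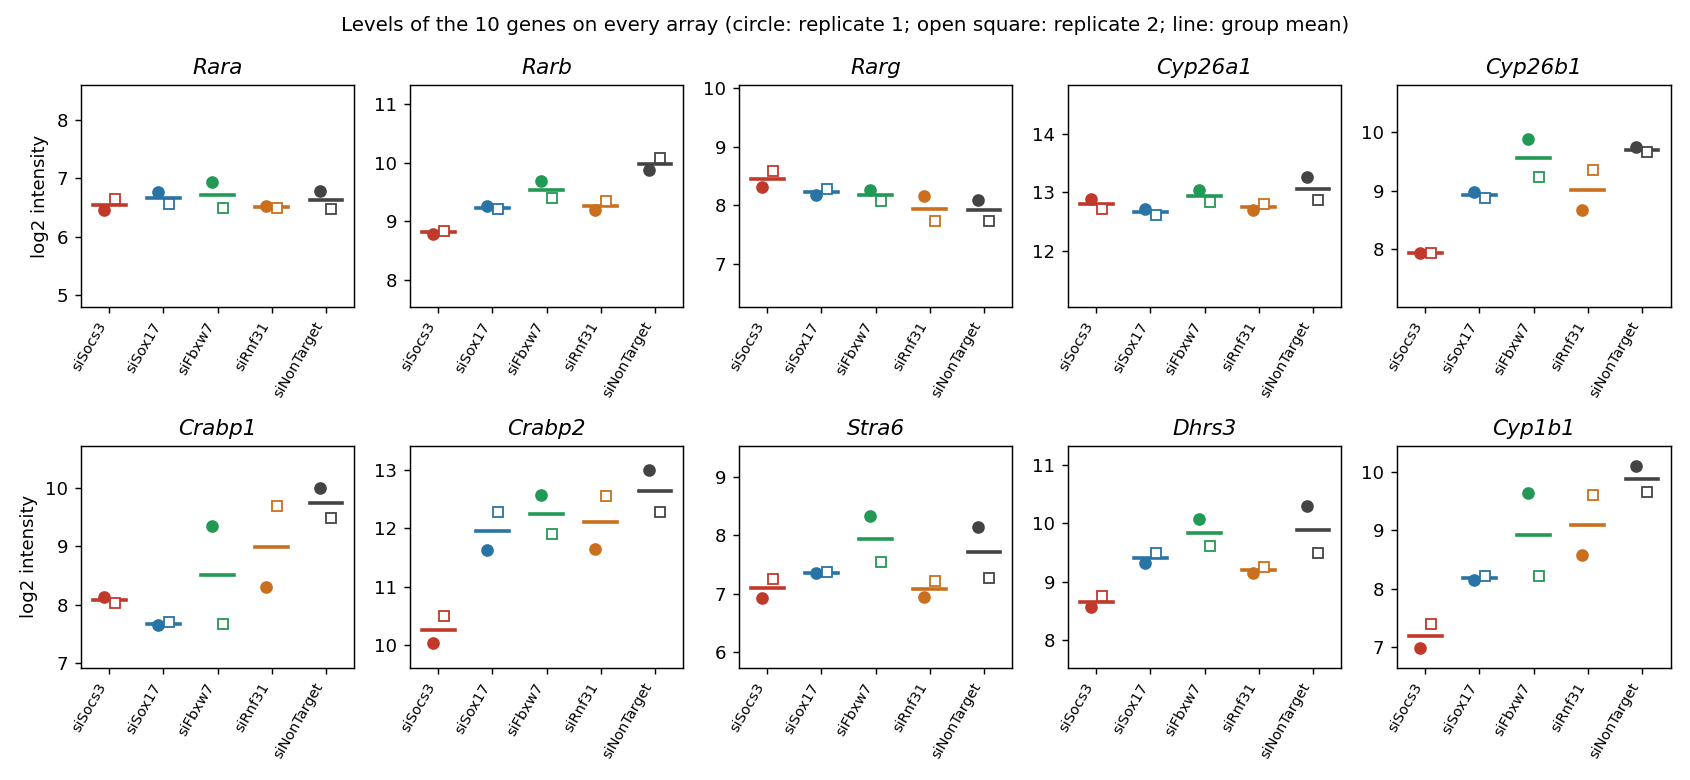
Log2 intensity (y axis) of the 10 genes on each of the 10 arrays, by siRNA group (x axis), with circles for replicate 1, open squares for replicate 2 and lines for group means; every panel spans the same log2 range but is centred on its own gene. The siSocs3 arrays lie lowest for Cyp26b1, Crabp2, Dhrs3, Cyp1b1 and Rarb, while Rara and Cyp26a1 hardly vary and Crabp1 splits within siFbxw7 and siRnf31.

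Rarb, the receptor gene that retinoic acid induces, read 8.78 and 8.83 on the siSocs3 arrays, 9.25 and 9.20 on siSox17, 9.69 and 9.39 on siFbxw7, 9.19 and 9.34 on siRnf31, and 9.87 and 10.08 on siNonTarget (log2 intensity). Every array of a targeting siRNA thus lay below both control arrays, and the siSocs3 arrays lay below all others. In siSocs3 Rarb fell by 1.17 ± 0.13 in log2 units (error: SE of the fit; n = 2 per group), which is 2.25-fold lower (limma adjusted p = 0.00367). This call held in all 20 alternatives run, with values from −1.28 to −1.07 and a highest adjusted p of 0.0493.

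Rara, the receptor gene found in most tissues, read 6.46 and 6.64 in siSocs3 and 6.78 and 6.47 in siNonTarget, and stayed between 6.46 and 6.94 over all 10 arrays. Its groups overlapped, and its siSocs3 difference of −0.08 had a 95% interval of −0.46 to 0.31 (limma adjusted p = 0.818). Rarg, the other receptor gene, read 8.31 and 8.59 in siSocs3 and 8.09 and 7.74 in siNonTarget. These groups did not overlap and siSocs3 was the higher one, but the log2 difference of 0.54 ± 0.18 did not pass (adjusted p = 0.0915, interval 0.14 to 0.94). The second Rarg probe set gave 0.61 ± 0.31 (adjusted p = 0.308), also above 0.

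The promoters of Rarb and Cyp26a1 are shown because both genes are textbook direct targets of the retinoic acid receptors, and 1 of them passed in siSocs3. The sequences are those of RefSeq (GRCm38.p6), which held 18 promoter windows for 9 of the 10 genes and none for Crabp2. They run 5′ to 3′ over the 250 bases before the annotated start. Capitals mark the receptor's repeat unit on either strand, searched as AGGTCA and as its variants spelled AGTTCA, or else GGGTCA, or finally GGTTCA; 43.7% of all promoter windows in that table hold at least 1 of these. The Rarb window lies at chr14:16575477-16575726 on the minus strand and the Cyp26a1 window at chr19:37697558-37697807 on the plus strand.
Rarb: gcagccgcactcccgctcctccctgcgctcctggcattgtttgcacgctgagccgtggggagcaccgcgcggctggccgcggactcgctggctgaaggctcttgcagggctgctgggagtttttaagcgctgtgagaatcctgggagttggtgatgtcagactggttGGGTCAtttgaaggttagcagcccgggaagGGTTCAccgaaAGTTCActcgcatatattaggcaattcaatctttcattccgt
Cyp26a1: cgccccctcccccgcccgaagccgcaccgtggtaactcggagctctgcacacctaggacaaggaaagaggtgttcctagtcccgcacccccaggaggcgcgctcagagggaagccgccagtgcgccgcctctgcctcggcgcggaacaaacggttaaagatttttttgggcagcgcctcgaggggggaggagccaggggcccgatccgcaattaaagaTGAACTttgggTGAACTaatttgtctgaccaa
In both, a pair of units forms a direct repeat spaced by 5 bases. Read along the strand that carries it, each repeat is printed here with its units in capitals.
Rarb repeat: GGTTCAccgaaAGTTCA
Cyp26a1 repeat: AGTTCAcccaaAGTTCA
The Rarb repeat lies at −53 to −37 relative to the start on the gene's own strand, and that of Cyp26a1 at −32 to −16 on the opposite strand. They share 15 of 17 bases, and 11 of 12 within the units. Such a repeat was found in 32 of 32851 promoter windows (0.0974%), searched on both strands. Each searched window held 300 bases, the 250 before the start and 50 after it, so it was longer than the stretches printed. The share of windows with a single unit is over the same windows. It was in no other window of the 9 genes that had windows. Spacings of 1 and 2 bases were not found in any of their windows, against 0.222% and 0.268% of all windows. A match is a description of letters and does not show a bound site.

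Cyp26a1, the main retinoic acid hydroxylase of the early embryo, read 12.88 and 12.71 in siSocs3, 12.71 and 12.62 in siSox17, 13.04 and 12.83 in siFbxw7, 12.70 and 12.80 in siRnf31, and 13.26 and 12.87 in siNonTarget. All arrays lay within 0.64 log2 units, and its mean was above that of 99.0% of genes. The siSocs3 difference was −0.27 ± 0.14 (limma adjusted p = 0.275) with an interval of −0.60 to 0.06, against −1.46 to −0.88 for Rarb. The difference between the 2 genes was not itself tested.

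Cyp26b1, the hydroxylase of the hindbrain, limb and gonad, read 7.94 and 7.93 in siSocs3, 8.98 and 8.88 in siSox17, 9.89 and 9.23 in siFbxw7, 8.67 and 9.35 in siRnf31, and 9.75 and 9.66 in siNonTarget. The siSocs3 pair lay below every other array. In siSocs3 Cyp26b1 fell by 1.77 ± 0.24 on the log2 scale, which is 3.41-fold lower (limma adjusted p = 0.0065), and the call was lost in 1 of 20 alternatives (adjusted p = 0.0722 without siSocs3 replicate 1). Its promoter window, at chr6:84593811-84594060 on the minus strand, holds none of the repeat units and is shown in lower case beside those of Rarb and Cyp26a1.
Cyp26b1: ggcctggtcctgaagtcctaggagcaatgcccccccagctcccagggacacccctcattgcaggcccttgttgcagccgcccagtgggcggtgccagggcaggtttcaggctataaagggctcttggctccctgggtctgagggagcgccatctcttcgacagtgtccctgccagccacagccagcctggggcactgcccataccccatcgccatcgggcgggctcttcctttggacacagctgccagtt

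Cyp1b1, a cytochrome P450 that can oxidise retinol to retinaldehyde and retinoic acid and also acts on steroids, was represented by the brightest of its probe sets. It read 6.99 and 7.39 in siSocs3, 8.15 and 8.22 in siSox17, 9.63 and 8.22 in siFbxw7, 8.57 and 9.60 in siRnf31, and 10.10 and 9.65 in siNonTarget. Both siSocs3 arrays were below all others, and in siFbxw7 and siRnf31 1 array was near the controls while the other was lower. In siSocs3 Cyp1b1 fell by 2.69 ± 0.44 on the log2 scale, 6.43-fold lower (limma adjusted p = 0.0113). A second probe set, with 4.45 and 5.28 in siSocs3 and 7.65 and 7.63 in siNonTarget, fell by 2.78 ± 0.47 (adjusted p = 0.0181 over all probe sets, of which 4.99% passed). The third read 3.63 to 3.98 on all arrays, near the bottom of the scale, and gave 0.13 ± 0.13. Averaging the 3 probe sets moved the Cyp1b1 difference to −1.78 (adjusted p = 0.0122). With the brightest probe set it was the largest of the 10 siSocs3 differences, and with the average it was smaller than that of Crabp2 (−2.37).

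Crabp2, which carries retinoic acid to its receptors, read 10.03 and 10.49 in siSocs3, 11.63 and 12.28 in siSox17, 12.57 and 11.90 in siFbxw7, 11.65 and 12.55 in siRnf31, and 12.99 and 12.27 in siNonTarget. The siSocs3 pair stood more than 1 log2 unit below every other array. In siSocs3 Crabp2 fell by 2.37 ± 0.38 on the log2 scale, 5.18-fold lower (limma adjusted p = 0.00985).

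Crabp1, the binding protein linked to retinoic acid breakdown, read 8.13 and 8.03 in siSocs3, 7.65 and 7.71 in siSox17, 9.35 and 7.68 in siFbxw7, 8.30 and 9.69 in siRnf31, and 10 and 9.49 in siNonTarget. The 2 control arrays, siFbxw7 replicate 1 and siRnf31 replicate 2 read 9.35 or more, and the other 6 arrays read 8.30 or less. Its siSocs3 difference of −1.66 ± 0.53 did not pass (limma adjusted p = 0.0849). It did when the fit held only the siSocs3 and siNonTarget arrays (adjusted p = 0.0149) or left out either siFbxw7 array (adjusted p = 0.0281). The siSox17 estimate of Crabp1 was −2.06 ± 0.53 (adjusted p = 0.143), and between siSocs3 and siSox17 it gave 0.40 with an interval of −0.81 to 1.61.

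Dhrs3, the retinaldehyde reductase that limits retinoic acid synthesis, read 8.57 and 8.75 in siSocs3, 9.33 and 9.50 in siSox17, 10.07 and 9.61 in siFbxw7, 9.16 and 9.25 in siRnf31, and 10.29 and 9.49 in siNonTarget. The siSocs3 arrays were again lowest, but the control arrays lay 0.80 apart. In siSocs3 Dhrs3 fell by 1.23 ± 0.24 on the log2 scale, 2.35-fold lower (limma adjusted p = 0.0189). This call was the least steady of the 5, lost in 4 of 20 alternatives.

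Stra6, the receptor that takes up retinol from its plasma carrier, read 6.93 and 7.26 in siSocs3, 7.35 and 7.37 in siSox17, 8.34 and 7.54 in siFbxw7, 6.94 and 7.22 in siRnf31, and 8.15 and 7.27 in siNonTarget. Its 2 highest values were on the arrays of high actin 3' minus 5' difference, siFbxw7 replicate 1 and siNonTarget replicate 1, as was so for Dhrs3 (10.07 and 10.29), Crabp2 (12.57 and 12.99), Cyp26b1 (9.89 and 9.75), Cyp26a1 (13.04 and 13.26) and Rara (6.94 and 6.78). The siSocs3 difference of Stra6 was −0.62 ± 0.31 (limma adjusted p = 0.243), and −0.18 without siNonTarget replicate 1. Without both of these arrays, the siSocs3 differences were −0.83 for Dhrs3, −2.01 for Crabp2 and −1.28 for Rarb. Those of Cyp26b1 and Cyp1b1 were −1.73 and −2.46. All 5 equal the values without siNonTarget replicate 1 alone, since siFbxw7 replicate 1 enters only the shared spread. A single siNonTarget array is left in either fit.

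**Figure D2:**
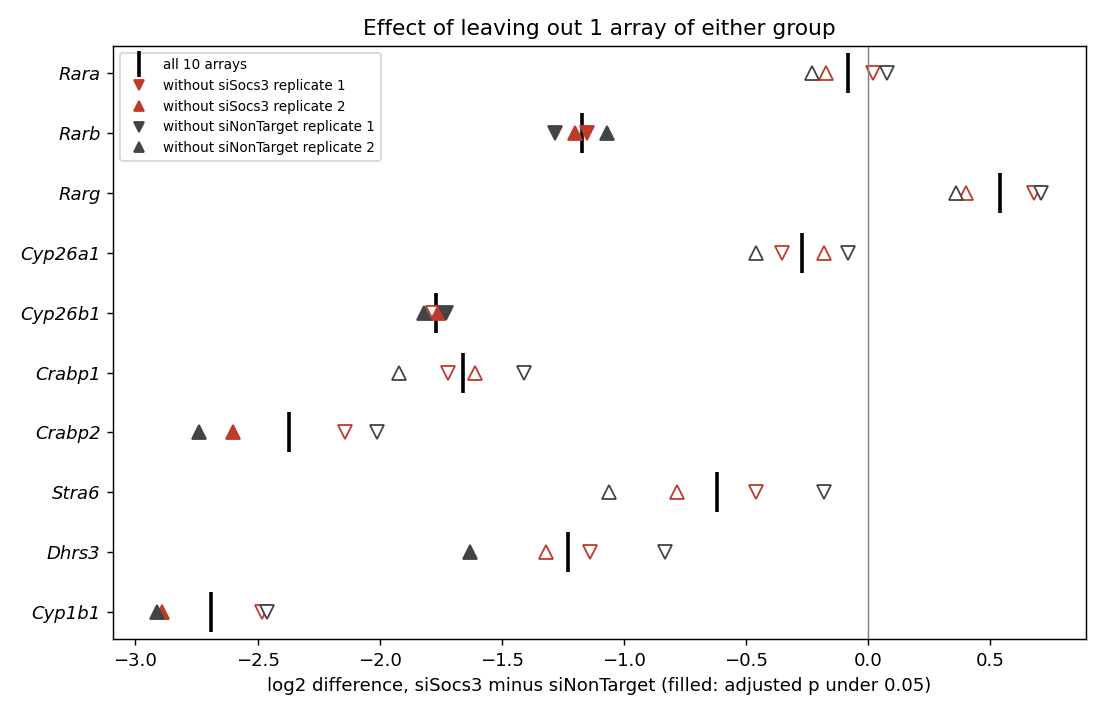
Log2 difference between siSocs3 and siNonTarget (x axis) for each of the 10 genes (y axis), with all 10 arrays (bar) and with 1 array of either group left out (triangles, filled where the adjusted p was under 0.05). Rarb stays filled throughout, and the 4 other called genes lose the call without siSocs3 replicate 1.

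Single arrays decided how many of the 10 genes were called. With all arrays 5 genes passed, beside 9.26% of all genes in either direction. Rarb was the only 1 left when replicate 1 of siSocs3 was taken out, beside 0.346% of all genes. When replicate 1 of siNonTarget was taken out, Rarb and Cyp26b1 passed, 2 genes, beside 1.72% of all genes. Of the differences that lost the call, Crabp2 kept −2.14 and −2.01, Cyp1b1 −2.48 and −2.46, and Dhrs3 −1.14 and −0.83 without these 2 arrays in that order. These fits take the spread of a lone array from the remaining groups.

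In the other 3 groups none of the 10 genes passed against siNonTarget, where 0.0055% of all genes were called in siSox17 and 0.0% in siFbxw7 and siRnf31 (limma). At an unadjusted p under 0.05 there were 5 of 10 in siSox17, 2 in siFbxw7 and 3 in siRnf31, beside 17.3%, 6.45% and 5.87% of all genes. The arrays did not overlap with the controls for 6 of 10 genes in siSox17, 3 in siFbxw7 and 6 in siRnf31, beside 48.2%, 33.0% and 35.2% of all genes. The median log2 difference of the 10 genes was −0.57 in siSox17, −0.14 in siFbxw7 and −0.66 in siRnf31, against medians of 0.00 over all genes. These comparisons and that of siSocs3 share the 2 siNonTarget arrays. For Rarb the estimates were −0.75 ± 0.13 in siSox17 (adjusted p = 0.131), −0.44 ± 0.13 in siFbxw7 (0.752) and −0.72 ± 0.13 in siRnf31 (0.778), each with both arrays below both controls. For Cyp1b1 they were −1.70 ± 0.44, −0.95 ± 0.44 and −0.79 ± 0.44 in the same order of groups.

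The siSox17 comparison depended on which groups shared the fit. Crabp1, Cyp1b1 and Cyp26b1 passed in siSox17, all below the control, when siSox17 and siNonTarget were fitted alone (limma adjusted p = 0.0235, 0.0245 and 0.0447), beside 1.4% of all genes. Crabp1, Cyp1b1 and Rarb passed when either siFbxw7 array was left out (adjusted p = 0.0488, 0.0488 and 0.0332), beside 1.29% of all genes. Cyp26a1 had its lowest level in siSox17, at −0.40 ± 0.14 from the control (adjusted p = 0.212).

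**Figure D3:**
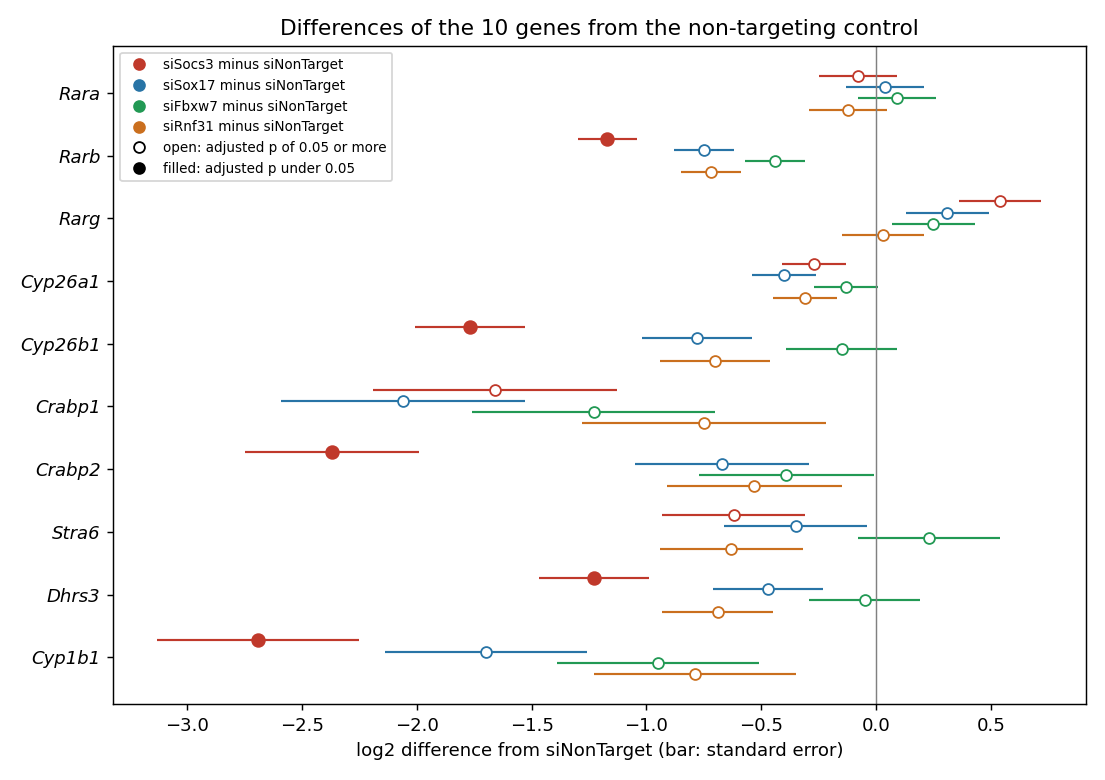
Log2 difference from siNonTarget (x axis, bars are standard errors of the limma fit) for the 10 genes (y axis) in the 4 groups of targeting siRNAs. Filled points passed at an adjusted p under 0.05; they are the 5 siSocs3 differences of Rarb, Cyp26b1, Crabp2, Dhrs3 and Cyp1b1.

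Direct comparisons of the siRNAs do not take differences from the control, but the control arrays still enter the spread shared by the 5 groups. Against siFbxw7, siSocs3 was lower for 4 of the 10 genes, and higher for none, where 1.41% of all genes were lower, 2.09% were higher and 3.51% were called in all (limma). The 4 were Cyp26b1 (−1.62 ± 0.24, adjusted p = 0.00929), Rarb (−0.73 ± 0.13, 0.0186), Crabp2 (−1.98 ± 0.38, 0.0264) and Dhrs3 (−1.18 ± 0.24, 0.034). At an unadjusted p under 0.05 there were 6 of 10, beside 18.5% of all genes. All 4 calls ended without siFbxw7 replicate 1 or without either siSocs3 array. Against siRnf31, only Crabp2 was lower in siSocs3 (−1.84 ± 0.38, adjusted p = 0.0454), 1 gene of 10 beside 0.627% of all genes lower, 1.5% higher and 2.13% called in all. It did not pass in 12 of 20 alternatives, and 5 of the 10 genes had an unadjusted p under 0.05, beside 16.9%. Against siSox17 none passed, beside 0.967% of all genes lower, 1.64% higher and 2.61% called in all, while 4 of 10 had an unadjusted p under 0.05, beside 17.4%. The closest was Crabp2 (−1.70 ± 0.38, adjusted p = 0.0532). Crabp2, Cyp1b1, Cyp26b1 and Dhrs3 did pass there, all lower in siSocs3, when only those 2 groups were fitted, beside 4.84% of all genes. Among siFbxw7, siSox17 and siRnf31 none of the 10 genes passed in limma, and 0.0% of all genes did. At an unadjusted p under 0.05 there were 2 of 10 between siFbxw7 and siSox17, 3 between siFbxw7 and siRnf31 and 1 between siSox17 and siRnf31, beside 5.59%, 5.19% and 7.68% of all genes.

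Ordered by group mean, siNonTarget was highest for 7 of the 10 genes, siFbxw7 for Rara and Stra6, and siSocs3 for Rarg alone. The siSocs3 mean was lowest for the 5 called genes, siSox17 was lowest for Cyp26a1 and Crabp1, siRnf31 for Rara and Stra6, and siNonTarget for Rarg. None of the 40 neighbouring pairs in these orders differed in the limma fit (lowest adjusted p = 0.0532, siSocs3 below siSox17 for Crabp2). Neither the highest and lowest places nor the middle ones are thus settled against the group next to them.

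The gap between replicates of a group was itself large for these genes in some groups. Its median over the 10 genes was 0.18 log2 units in siSocs3, 0.09 in siSox17, 0.56 in siFbxw7, 0.36 in siRnf31 and 0.42 in siNonTarget, beside 0.11 to 0.15 over all genes. The widest gaps were those of Crabp1 in siFbxw7 (1.66) and siRnf31 (1.39). In siFbxw7 replicate 1 was the higher array for all 10 genes, in siNonTarget for 9, and in siRnf31 replicate 2 was the higher for 8.

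Other genes of the pathway were read from lists. Of 30 measured genes of retinoid synthesis, transport and storage, 2 fell and 2 rose in siSocs3 (limma), with a median log2 difference of −0.01. Over all genes 5.66% fell and 3.59% rose, so these counts are near the background. Aldh1a7, an aldehyde dehydrogenase closely related to the retinaldehyde dehydrogenase Aldh1a1, read 3.97 and 4.93 in siSocs3 and 7.41 and 8.11 in siNonTarget and fell by 3.30 ± 0.72 (adjusted p = 0.0266). Rbp4, the plasma carrier of retinol, read 7.22 and 7.31 in siSocs3 and 7.91 and 8.03 in siNonTarget (−0.70 ± 0.15). The alcohol dehydrogenases Adh7 (0.65 ± 0.13) and Adh4 (0.49 ± 0.11) rose, both at levels below the median gene (7.0). Adh7 read 6.72 and 6.45 in siSocs3 and 5.84 and 6.02 in siNonTarget. Adh4 read 4.56 and 4.54 against 4.12 and 4.0, near the bottom of the scale. With the dimmest 50% of genes left out, 0 genes of this list rose. None of these 4 passed when replicate 1 of siSocs3 or replicate 1 of siNonTarget was taken out. In siSox17, Rbp4 was −1.17 ± 0.15 and Fabp5, a fatty acid binding protein that can also carry retinoic acid, was −0.64 ± 0.14, neither past the threshold (adjusted p = 0.112 and 0.138).

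Of 30 measured retinoid X receptors, coregulators and related partners, 4 fell and 2 rose in siSocs3, with a median of −0.14, beside the same 5.66% and 3.59% of all genes. No gene of this list fell when replicate 1 of siSocs3 or either siNonTarget array was taken out, and none rose, Rxra included, without replicate 1 of siSocs3. Rxra, the heterodimer partner of the retinoic acid receptors, read 8.23 and 8.01 in siSocs3 and 7.27 and 7.23 in siNonTarget and rose by 0.87 ± 0.12 (limma adjusted p = 0.00696). Both siSocs3 arrays lay above both controls, the opposite of Rarb. The coregulator gene Trim24 rose too (0.67 ± 0.15), while the coactivator genes Ncoa2 (−0.75 ± 0.14) and Med1 (−0.36 ± 0.09), Asxl1 (−0.60 ± 0.16) and the orphan receptor gene Nr2f1 (−2.85 ± 0.57) fell. Nr2f1 also stands in the list of induced genes that follows.

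Of 39 measured genes that retinoic acid induces outside the HOX clusters, 13 fell and 2 rose in siSocs3, with a median of −0.38, beside 5.66% lower and 3.59% higher over all genes. The homeobox genes Meis2 (−2.02 ± 0.29), Pax6 (−2.09 ± 0.32) and Pbx3 (−1.30 ± 0.22), the zinc finger gene Tshz1 (−2.16 ± 0.34), Hes1 (−0.59 ± 0.10) and the meiotic cohesin gene Rec8 (−0.90 ± 0.17) had the smallest p among those that fell (limma adjusted p from 0.00778 to 0.0167). Taking out replicate 1 of siSocs3 gave a count of 0 that fell in place of 13, replicate 1 of siNonTarget 1, replicate 2 of siSocs3 5, and both arrays of high actin difference 7. The 2 that rose were Cdx1 (1.39 ± 0.29) and Egr1 (0.52 ± 0.14), named after their values were seen; no gene of the list rose without either siSocs3 array, without replicate 1 of siNonTarget, or without both arrays of high actin difference. The fits named for the 3 lists with siSocs3 or siNonTarget arrays taken out also called fewer of all genes than the fit with all arrays. In the other 3 groups none of the genes of these 3 lists passed. Aldh1a7 gave −2.49 ± 0.72 in siSox17 and −2.11 ± 0.72 in siFbxw7, and Nr2f1 gave −2.15 ± 0.57 and −1.42 ± 0.57 in the same groups. The estimates with the smallest p among the induced genes were Ret (−2.11 ± 0.40) and Foxa1 (−0.93 ± 0.19) in siSox17, Gata6 (0.80 ± 0.22) and Egr1 (0.50 ± 0.14) in siFbxw7, and Foxa2 (−1.24 ± 0.20) and Cdx1 (1.03 ± 0.29) in siRnf31.

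**Figure D4:**
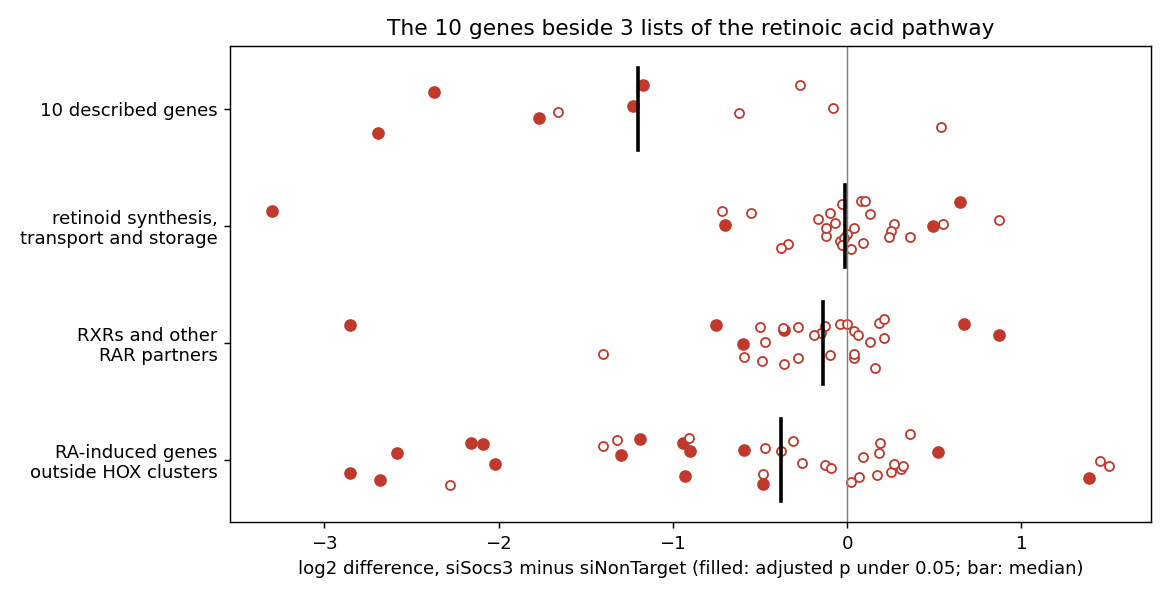
Log2 difference between siSocs3 and siNonTarget (x axis) of the 10 genes and of 3 lists of other retinoic acid pathway genes (rows), 1 point per gene, filled where the adjusted p was under 0.05, with a bar at the median; points are spread vertically for legibility only. The medians lie at −1.20 for the 10 genes and at −0.01, −0.14 and −0.38 for the lists from top to bottom.

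Markers of stem cells and of neural cells moved with the siSocs3 differences, in a comparison where 5.66% of all genes fell and 3.59% rose. Of 14 markers of undifferentiated embryonic stem cells 9 rose and none fell in siSocs3, and their summed level was 15.64 to 15.74 in siSocs3 against 14.85 to 15.00 in siNonTarget (log2 of summed intensity). Of 10 neural markers 5 fell, among them Pax6 and Sox1, which are also counted among the induced genes, with a summed level of 10.11 to 10.39 in siSocs3 and 11.08 to 11.64 in siNonTarget. With replicate 1 of siSocs3 taken out, 1 stem cell marker rose and 0 neural ones fell; with replicate 1 of siNonTarget taken out, these counts were 4 and 1. Of 14 markers of extraembryonic endoderm 1 fell (13.02 to 13.14 in siSocs3, 13.11 to 13.31 in siNonTarget), and of 9 of mesoderm and primitive streak 3 rose and 1 fell (9.55 to 9.57 in siSocs3, 9.05 to 9.14 in siNonTarget). Of 10 trophectoderm markers 1 rose (13.73 to 13.94 in siSocs3, 11.93 to 13.77 in siNonTarget), and of 13 fibroblast markers 1 rose and 2 fell (12.97 to 13.25 in siSocs3, 12.65 to 13.37 in siNonTarget). In these last 4 lists 0 genes passed when replicate 1 of siSocs3 or replicate 1 of siNonTarget was taken out, and 5 trophectoderm markers rose without replicate 2 of siNonTarget. Each fit with an array taken out here also called fewer of all genes than the fit with all arrays. The counts of endoderm, trophectoderm and fibroblast markers, 1 or 2 genes each way, are not far from the shares of all genes. Stem cell and neural markers leaned the same way in the other groups. In siSox17, siFbxw7 and siRnf31 the median log2 difference of the stem cell markers was 0.64, 0.4 and 0.27. That of the neural markers was −0.33, −0.17 and −0.37, beside 1.1 and −0.9 for the 2 lists in siSocs3. None of these markers passed in those 3 groups, where 0.0055% or less of all genes did. The part of these cell states in the values of the 10 genes was not tested.

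The genes whose profiles over the 10 arrays were most like those of the 5 called genes were found by the root mean square difference of log2 values, each gene centred on its own mean. For Rarb they were Shisa2, Smarca1 and Ccdc50 (0.12, 0.13 and 0.14, against 0.40 for Rarb around its own mean). For Cyp26b1 they were Meis2, Gas1 and Hoxb2 (0.17, 0.20 and 0.20, against 0.66), and for Crabp2 they were Hoxb3, Meis2 and Gas1 (0.23, 0.23 and 0.31, against 0.89). Meis2 and Gas1 were thus near both Cyp26b1 and Crabp2. For Cyp1b1 they were Ptn, Ednrb and Plch1 (0.15, 0.18 and 0.18, against 1.0), and for Dhrs3 they were Cd302, Gpm6a and Cmbl (0.13, 0.15 and 0.15, against 0.50). Among the 10 genes themselves, Rara and Cyp26a1 were closest (0.17), both nearly flat, followed by Stra6 and Dhrs3 and by Rara and Rarg (0.24 each). Cyp1b1 and Rarg were farthest apart (1.18).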

How the data were processed

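RNA of 10 cell samples was read on Affymetrix arrays, 2 per siRNA group as labelled. The input was 5 ng of total RNA, amplified and labelled with biotin before hybridisation, per the labels' protocols. The authors deposited intensities for 45101 probe sets; RMA is named in the submitters' processing notes, and its version is not given in the sources used here. Single values lie between 5.05 and 31606.3, and the medians of single arrays lie at 46.39 to 47.95; the scale is linear, and log2 was taken. RMA makes array distributions alike and compresses changes near the bottom of the scale. The number of arrays limits the precision.

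In the platform annotation 34958 probe sets had 1 gene symbol, 932 several and 9211 were not listed. Where a gene had several probe sets, the brightest on average stood for it. limma 3.58.1 (R 4.3.3) fitted all 18194 genes and 5 groups together, with 5 residual and 3.98 prior degrees of freedom. All p-values are two-sided; they were adjusted by Benjamini-Hochberg over all genes of a comparison, and 0.05 was the threshold. Groups this small cannot reach that threshold in an exact permutation test. The fit was also run on simulated data with independent noise of the fitted size. Such data cannot show how the fit behaves where replicates are technical or arrays share deviations. Python 3.11.15 and matplotlib 3.10.9 made the plots. Promoters were matched by symbol.

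The genes, lists and tests were chosen with earlier results of these data known. Named are the 10 genes; the targeted genes; in each pathway list up to 6 genes with the smallest adjusted p that passed in siSocs3 and up to 2 with the smallest p in each other group; and, for each called gene, the 3 genes of most similar profile (clone, Gm, Rik and LOC names skipped). Single marker genes were chosen after their values were seen. Alternatives changed the normalization, filter, prior, probe set rule, groups fitted and arrays.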

Additional observations from a re-analysis of the deposited data

How the results depend on the processing

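All 5 siSocs3 calls against siNonTarget stood under the replicate block, quantile normalization, median centring, either dim filter, a trended robust prior, averaged probe sets, a pseudocount of 16, a 2-fold minimum and every probe set alone. Up to the pseudocount in that list, 6.93% (averaged probe sets) to 15.7% (without the dimmest 50%) of all genes were called. With every probe set alone it was 4.99% of probe sets, and for the 2-fold minimum no share of all genes is given. With siSocs3 and siNonTarget fitted alone Dhrs3 was lost (limma adjusted p = 0.0554) and Crabp1 passed, beside 7.22% of all genes. Leaving out single arrays gave 1 to 6 called genes there, 0 to 3 for siSox17 against siNonTarget, and for siSocs3 0 to 2 against siSox17, 0 to 5 against siFbxw7 and 0 to 3 against siRnf31. The shares of all genes called in these fits were 0.346% to 11.4%, 0.0% to 1.29%, 0.423% to 2.86%, 0.445% to 4.94% and 0.121% to 3.03% in the same order. With 2 groups alone, 3 genes passed for siSox17 against siNonTarget (1.4% of all genes) and 4 for siSocs3 against siSox17 (4.84%). Without both arrays of high actin difference the counts of siSocs3 were 3 against siSox17, 1 against siFbxw7 and 4 against siRnf31, beside 4.07%, 1.2% and 3.72% of all genes. The 1 call against siRnf31 became 0 under the replicate block, quantile normalization, either dim filter, the trended prior, the pseudocount and every probe set alone. The 5 remaining comparisons had 0 calls in every setting run. In the labels same-numbered arrays share only a number. Over 10 pairs of groups the correlation of their deviations across genes ran from −0.26 to 0.42, 1 of them over 0.1. That 1 was siFbxw7 with siNonTarget, the groups whose replicate 1 arrays had the high actin difference. In all, 7 of 10 arrays matched best an array of the same number and 3 that of their own group. The replicate block gave 5 genes in siSocs3 against siNonTarget, beside 8.34% of all genes.

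Of 1990 alternative values of the 10 genes, 26 changed sign and moved more than 1 SE from the main value, none of a called difference. Sign changes with smaller moves are not counted among them. Leaving out single arrays, values against siNonTarget ran from −0.79 to 0.09 for Stra6 in siSox17, and in siFbxw7 from −0.14 to 0.32 for Rara, −0.32 to 0.06 for Cyp26a1, −0.48 to 0.18 for Cyp26b1, −0.21 to 0.67 for Stra6 (−0.17 without siFbxw7 replicate 1) and −0.45 to 0.35 for Dhrs3, and from −0.19 to 0.25 for Rarg in siRnf31. For siSocs3 against siFbxw7 they ran from −0.39 to 0.06 (Rara) and −1.26 to 0.40 (Crabp1). For siFbxw7 against siSox17 they ran from −0.18 to 0.28 (Rara) and 0.00 to 1.66 (Crabp1). For siFbxw7 against siRnf31 they ran from −0.02 to 0.43 (Rara), −1.32 to 0.35 (Crabp1), −0.31 to 0.58 (Crabp2) and −0.86 to 0.55 (Cyp1b1). For siSox17 against siRnf31 they ran from −0.42 to 0.26 (Cyp26b1) and −0.59 to 0.30 (Crabp2). Without both arrays of high actin difference the values were 0.09 for Stra6 in siSox17, 0.06 and 0.40 for Rara and Crabp1 in siSocs3 against siFbxw7, −0.18 and 0.00 for them in siFbxw7 against siSox17, and −0.02 for Rara in siFbxw7 against siRnf31. The causes were not tested. List counts by setting were added after seeing the data.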
